A study of Mus musculus with 6 samples.

Results

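The genes of de novo lipogenesis, the synthesis of new fatty acids from acetyl-CoA, were examined in the livers of p62S351E/+ and p62+/+ mice at postnatal day 19. The 10 genes were taken by name from the 24411 gene symbols of the count table: Acly, Acaca, Acacb, Fasn, Elovl6, Scd1, Srebf1, Mlxipl, Thrsp and Pnpla3. RNA-seq had been performed on 3 livers of each genotype after depletion of ribosomal RNA. The p62S351E/+ mice carried one allele of p62 (the gene Sqstm1) with Ser351 replaced by Glu and one unchanged allele, and the p62+/+ mice carried no edited allele. The knock-in came from a C57BL/6N-derived embryonic stem cell line edited by prime editing. It was passed on by a single chimeric male, of low chimerism, whose sperm was used for in vitro fertilization. Neither sex nor litter was given for the mice.

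De novo lipogenesis turns surplus carbohydrate into fat. In the cytosol, ATP citrate lyase (Acly) makes acetyl-CoA from citrate, the acetyl-CoA carboxylases (Acaca, Acacb) make malonyl-CoA, and fatty acid synthase (Fasn) builds palmitate. ELOVL6 lengthens palmitate and SCD1 introduces a double bond. In liver the pathway is known to be high after feeding and low in fasting, through SREBP-1c (Srebf1), which is induced by insulin, and ChREBP (Mlxipl), which is activated by glucose. It is also known to change at weaning, when pups go from fatty milk to chow. The authors report that the knock-in mice were severely stunted, with low blood glucose, at ages before that of these livers. They propose poor intake of food, through a thickened lining of the esophagus and forestomach, as the main cause. The nutritional state of the sequenced mice was not given. Its part in the differences below cannot be told from that of genotype and was not tested.

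By edgeR, Thrsp was the one gene of the 10 that was called lower in the p62S351E/+ mice. limma-voom called Acaca instead, and DESeq2 called 0 of the 10. The normalized counts of Thrsp were 25.7, 24.8 and 24.2 in the p62+/+ mice and 3.81, 6.30 and 6.20 in the p62S351E/+ mice. Thrsp (Spot 14) encodes a small protein that is induced by thyroid hormone, insulin and carbohydrate and promotes fatty acid synthesis. Scd1, Fasn, Acaca, Acly, Srebf1 and Mlxipl each had less RNA in every p62S351E/+ mouse than in any p62+/+ mouse, but none of these differences passed edgeR's test. Acacb, Elovl6 and Pnpla3 had too few counts to be tested. No gene of the 10 was called higher by edgeR, DESeq2 or limma-voom, and 0 of the 7 tested were higher at an unadjusted p under 0.05 (edgeR), while 6 were lower, against 9.02% and 5.55% of all tested genes. These counts are a description only. The 10 genes were chosen with earlier results of these data known, and Thrsp had enough counts for the test only in the p62+/+ mice.

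The values are expected counts per gene, as estimated by RSEM from the reads, and the counts that fell outside 3 very abundant RNAs (Rn45s, Lars2 and Mir6236) numbered between 271473 and 299487 in the p62+/+ mice and between 134911 and 315436 in the p62S351E/+ mice. To obtain normalized counts, each library was divided by its TMM-scaled size, set relative to the geometric mean of the 6 sizes. A gene was called lower or higher when edgeR's quasi-likelihood test gave an adjusted p (Benjamini-Hochberg over 5945 tested genes) under 0.05 and the log2 fold change exceeded 1 in size. At these thresholds 0.0841% of the tested genes were called lower and 0.841% higher. The livers held hepatocyte transcripts in all 6 libraries: 9 of the 10 hepatocyte markers looked for were in the table, all were detected in every library, and they summed to between 11893 and 12885 normalized counts for p62+/+, whereas the p62S351E/+ livers had sums of 18603, 28283 and 13673. The libraries stood apart in transcripts of brain. The 10 marker genes of brain summed to between 2370 and 2756 raw counts for p62+/+ and to 2512 in p62S351E/+ mouse 3, but to 19 and 32 in p62S351E/+ mice 1 and 2, where Snap25 and Gfap were at 0. Xist, which is made in female cells, had 70.8, 1505 and 1071 raw counts in the p62+/+ mice and 1, 0 and 1537 in the p62S351E/+ mice. For the lipogenesis genes p62S351E/+ mouse 3 is therefore named apart, since it is the only p62S351E/+ library with brain transcripts at the level of the p62+/+ libraries. It is also the only p62S351E/+ library with high Xist, so within this group brain transcripts and Xist cannot be told apart.

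The promoters of the genes are shown where they bear on the regulators named above. RefSeq promoter windows on GRCm38.p6, from 250 bases before to 50 bases after the start site, were held for 9 of the 10 genes (12 windows, since Srebf1 and Mlxipl have several starts). Both strands were searched for motifs of factors known to act on lipogenic genes, and for that of NRF2, the factor held in check by KEAP1, the partner of p62. The E-box CACGTG is the core of the element bound by ChREBP with its partner MLX. The letters TCACNCCAC are the core of a sterol regulatory element, bound by SREBP. The CCAAT box, bound by NF-Y, was searched as ATTGG in either orientation. The GC box, bound by SP1, was searched as GGGCGG. The NRF2 core was searched as TGACNNNGC. CCAAT boxes were found in 8 of the 12 windows, against 37.4% of all 32851 windows. By gene, they were found in 7 of the 9, for which no share over all genes was computed. GC boxes were found in 5 of 12 windows, against 35.7% of all windows. The NRF2 core was found in 0 of 12 windows, against 12.4% of all windows. The E-box and the SREBP core were each found in 1 window of Mlxipl, against 7.15% and 1.24% of all windows. Elements farther from the start lie outside these windows.

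The windows of Thrsp (chr7:97417501-97417800, minus strand), of Fasn (chr11:120824498-120824797, minus strand) and of Mlxipl (chr5:135089640-135089939, plus strand) follow, as those of the gene that was called, the synthase and the window with the E-box, with matches to any of the searched letters in capitals.
Thrsp: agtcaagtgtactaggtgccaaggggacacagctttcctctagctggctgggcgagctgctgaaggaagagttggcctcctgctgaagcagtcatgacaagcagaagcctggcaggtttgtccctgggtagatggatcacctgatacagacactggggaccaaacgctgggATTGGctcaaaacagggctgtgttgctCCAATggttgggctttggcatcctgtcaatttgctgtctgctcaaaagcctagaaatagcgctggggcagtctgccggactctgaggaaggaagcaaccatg
Fasn: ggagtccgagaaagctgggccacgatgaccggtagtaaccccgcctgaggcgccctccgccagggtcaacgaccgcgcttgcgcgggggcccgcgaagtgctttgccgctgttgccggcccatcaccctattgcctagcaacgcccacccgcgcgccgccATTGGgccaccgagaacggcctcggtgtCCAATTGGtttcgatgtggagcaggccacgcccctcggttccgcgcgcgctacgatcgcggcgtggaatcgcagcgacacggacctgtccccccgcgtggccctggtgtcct
Mlxipl: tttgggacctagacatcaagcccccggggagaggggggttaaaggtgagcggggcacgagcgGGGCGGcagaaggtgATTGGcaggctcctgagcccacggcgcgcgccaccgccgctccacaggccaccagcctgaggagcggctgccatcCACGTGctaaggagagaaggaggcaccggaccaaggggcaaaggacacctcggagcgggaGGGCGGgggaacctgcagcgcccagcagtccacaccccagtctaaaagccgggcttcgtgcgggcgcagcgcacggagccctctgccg
Positions are counted from 1 at the start site and negative before it, for the first base of the match on the printed strand. In Thrsp, 2 CCAAT boxes began at -79 and -52. In Fasn, 3 began at -90, -62 and -59, of which the last 2 overlap. In Mlxipl, the E-box began at -98, a CCAAT box at -173 and GC boxes at -188 and -38.

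**Figure D1:**
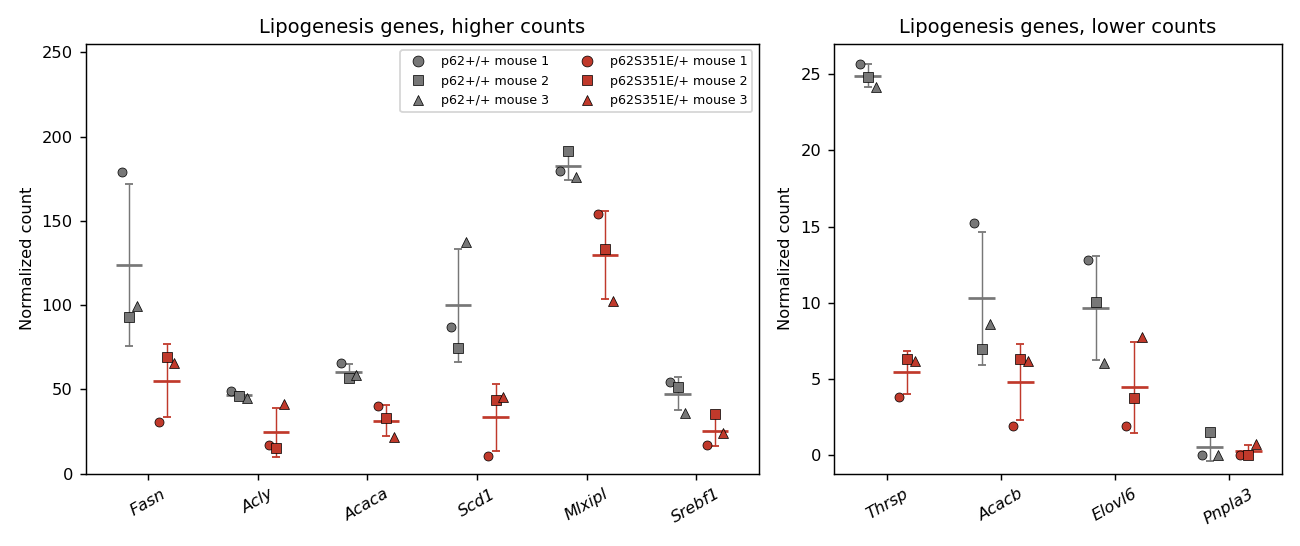
Normalized counts of the 10 lipogenesis genes, with grey symbols for the 3 p62+/+ mice and red symbols for the 3 p62S351E/+ mice, horizontal lines for means and bars for SD (n = 3). The red symbols lie below the grey ones for Fasn, Acly, Acaca, Scd1, Mlxipl, Srebf1, Thrsp and Acacb, and overlap them for Elovl6 and Pnpla3.

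Thrsp lies on chromosome 7 of GRCm38 from 97412933 to 97417550. It had raw counts of 32, 32 and 28 in the p62+/+ mice and of 2, 5 and 8 in the p62S351E/+ mice, all of them whole numbers. The highest p62S351E/+ mouse was thus far below the lowest p62+/+ mouse, and p62S351E/+ mouse 3, at 24.9% of the p62+/+ mean, was close to mouse 2, at 25.3%. Mean normalized counts fell from 24.9 ± 0.753 to 5.44 ± 1.41 (SD, n = 3 each). The log2 fold change was -2.13 ± 0.31 (SE, with an adjusted p of 0.0205 by edgeR). With so few counts the exact 95% Poisson intervals of the p62S351E/+ counts, which cover counting error only, were 0.242 to 7.23, 1.62 to 11.7 and 3.45 to 15.8 counts. The call rested on every library but one. Leaving out p62+/+ mouse 1, 2 or 3 or p62S351E/+ mouse 1 or 2 gave adjusted p values of 0.115, 0.11, 0.0813, 0.072 and 0.0646 (edgeR), whereas without p62S351E/+ mouse 3 it was 0.00133.

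Scd1, on chromosome 19 from 44394450 to 44407709, encodes the desaturase that makes oleate and palmitoleate. Its normalized counts were 87.0, 74.9 and 138 in the p62+/+ mice and 10.6, 44.0 and 45.4 in the p62S351E/+ mice. The groups did not overlap, and p62S351E/+ mouse 1 was the lowest by far, on a raw count of only 5.59. At an adjusted p of 0.243 (edgeR), the log2 fold change of -1.53 ± 0.49 (SE) was not called. The counts of Scd1 were not whole in any of the 6 libraries, nor were those of its paralog Scd2, so that reads may have been divided between the genes. Scd2 had 233, 259 and 245 normalized counts in the p62+/+ mice, but only 8.40 and 5.15 in the first and second p62S351E/+ mouse, whereas the third had 203. The 8 oligodendrocyte markers were likewise low in p62S351E/+ mice 1 and 2 alone: they summed to between 1547 and 1636 normalized counts for p62+/+, to 7.6 in both of p62S351E/+ mice 1 and 2, and to 1470 in mouse 3. In p62S351E/+ mouse 3, where Scd2 and these markers were near the p62+/+ level, Scd1 was at 45.5% of the p62+/+ mean.

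**Figure D2:**
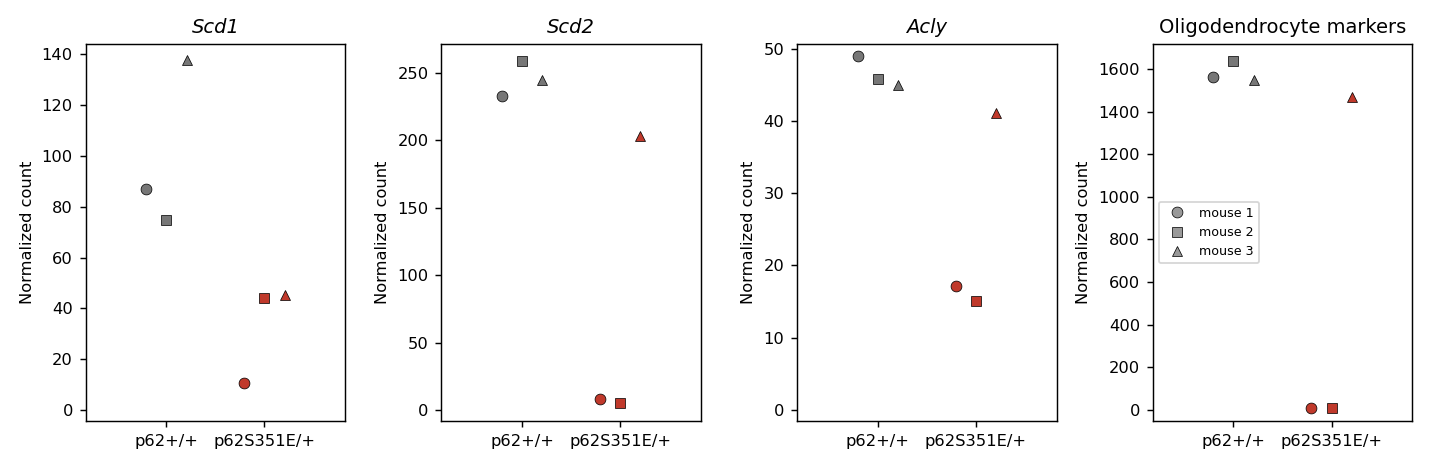
Normalized counts of Scd1, Scd2 and Acly and the summed normalized counts of 8 oligodendrocyte markers in each mouse, with p62+/+ in grey, p62S351E/+ in red and a symbol for each mouse number. Scd2 and the markers are near 0 in p62S351E/+ mice 1 and 2 and high in mouse 3, Acly is likewise highest in mouse 3 of its group, and Scd1 in mouse 3 stays with mouse 2.

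Fasn, on chromosome 11 from 120805958 to 120825166, encodes the enzyme that builds palmitate from malonyl-CoA. Its normalized counts were 179, 93.2 and 99.3 in the p62+/+ mice and 30.5, 69.3 and 65.9 in the p62S351E/+ mice. Every p62S351E/+ mouse was below every p62+/+ mouse, but p62+/+ mouse 1 stood far above the other two. The log2 fold change was -1.15 ± 0.37 (SE, with an adjusted p of 0.238 by edgeR), and p62S351E/+ mouse 3 was at 53.2% of the p62+/+ mean.

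The carboxylases supply malonyl-CoA, ACC1 (Acaca) for synthesis in the cytosol and ACC2 (Acacb) at the mitochondrial surface, where malonyl-CoA restrains fatty acid oxidation. Acaca, on chromosome 11 from 84129635 to 84401651, had 65.8, 56.7 and 58.7 normalized counts in the p62+/+ mice and 40.0, 32.8 and 21.7 in the p62S351E/+ mice. Here p62S351E/+ mouse 3 was the lowest, at 35.9% of the p62+/+ mean. Its log2 fold change was -0.95 ± 0.26 (SE, with an adjusted p of 0.169 by edgeR). Acacb, on chromosome 5 from 114146321 to 114250761, had raw counts of 19, 9 and 10 in the p62+/+ mice and 1, 5 and 8 in the p62S351E/+ mice and did not pass the filter on low counts. Its normalized counts (15.3, 6.99 and 8.64 against 1.90, 6.30 and 6.20) did not overlap, and an exact two-sided permutation test gave p = 0.1, the smallest value that 3 mice against 3 allow. In a fit without the filter its log2 fold change was -1.01 ± 0.52 (SE, with an adjusted p of 0.58 by edgeR).

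Acly, on chromosome 11 from 100476352 to 100528000, had 49.0, 45.8 and 44.9 normalized counts in the p62+/+ mice. The p62S351E/+ mice had 17.1, 15.1 and 41.1, so mouse 3 lay just under the lowest p62+/+ mouse while mice 1 and 2 were far lower. The raw counts of mice 1 and 2 were only 9 and 12. The log2 fold change was -0.90 ± 0.37 (SE, with an adjusted p of 0.322 by edgeR). In p62S351E/+ mouse 3 Acly was at 88.2% of the p62+/+ mean, against 36.8% and 32.5% in mice 1 and 2, the libraries in which the brain markers were nearly absent. Elovl6, on chromosome 3 from 129532386 to 129638495, was also highest in mouse 3 among the p62S351E/+ mice, with fewer counts. Its raw counts were 16, 13 and 7 in the p62+/+ mice and 1, 3 and 10 in the p62S351E/+ mice, and its normalized counts in p62S351E/+ mouse 3 (7.75) overlapped those of the p62+/+ mice (12.8, 10.1 and 6.05; exact two-sided permutation p = 0.2). Without a filter on low counts its log2 fold change was -0.97 ± 0.53 (SE, with an adjusted p of 0.603 by edgeR). The part of the brain transcripts in the values of Elovl6 was not tested.

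Srebf1 and Mlxipl encode the transcription factors of the pathway. Srebf1, on chromosome 11 from 60199084 to 60224186, had 54.6, 51.2 and 36.3 normalized counts in the p62+/+ mice and 17.1, 35.3 and 24.0 in the p62S351E/+ mice. The second p62S351E/+ mouse came within 1 count of the lowest p62+/+ mouse, and the first had a raw count of only 9. The log2 fold change was -0.88 ± 0.31 (SE, with an adjusted p of 0.26 by edgeR), and the table does not separate the SREBP-1a and SREBP-1c transcripts. Mlxipl, on chromosome 5 from 135089890 to 135139768, had 180, 192 and 176 normalized counts in the p62+/+ mice and 154, 134 and 102 in the p62S351E/+ mice. It had the smallest log2 fold change of the 7 tested lipogenesis genes, -0.49 ± 0.22 (SE, with an adjusted p of 0.35 by edgeR), and p62S351E/+ mouse 3 was again the lowest, at 56.0% of the p62+/+ mean. Pnpla3, on chromosome 15 from 84167776 to 84189521, encodes a lipid droplet protein whose transcription follows that of the pathway. It had 0, 2 and 0 raw counts in the p62+/+ mice and 0, 0 and 1 in the p62S351E/+ mice, so no difference was detectable at this depth.

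**Figure D3:**
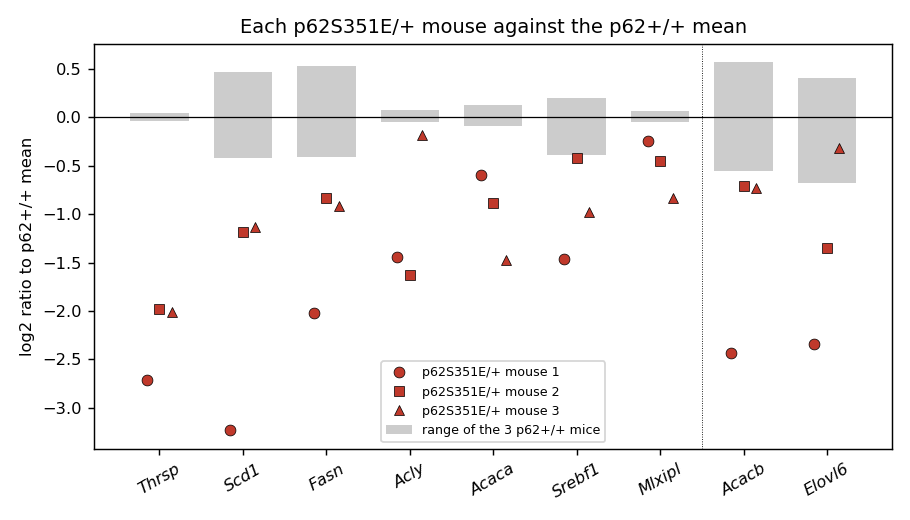
The log2 ratio of normalized counts in each p62S351E/+ mouse to the p62+/+ mean (symbols by mouse) and the range of the 3 p62+/+ mice (grey boxes) for 9 lipogenesis genes; Acacb and Elovl6, right of the dotted line, were not tested. All symbols lie under the grey boxes (that of mouse 2 for Srebf1 narrowly) except that of p62S351E/+ mouse 3 for Elovl6, and mouse 3 is nearest to 0 for Acly and farthest from it for Acaca and Mlxipl.

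Of the 10 genes, 7 were tested, and all 7 had lower normalized counts in each p62S351E/+ mouse than in any p62+/+ mouse, against 14.7% of the tested genes. This count is a description, since a gene with high counts in the p62+/+ mice alone passes the filter: Thrsp, for one, had at least 10 raw counts in 0 of the p62S351E/+ libraries. The median log2 fold change of the 7 genes was -0.95, against -0.03 over all 5945 tested genes. By mouse, the median log2 ratio of the 7 genes to the p62+/+ mean was -1.47, -0.88 and -0.98 in p62S351E/+ mice 1, 2 and 3. All 10 genes together summed to 669, 557 and 592 normalized counts for p62+/+, and each p62S351E/+ mouse was lower, with 277, 346 and 321. In whole liver, fewer cells of a type and less RNA per cell cannot be told apart.

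The order of the p62S351E/+ mice differed from gene to gene. Among the 9 genes other than Pnpla3, p62S351E/+ mouse 1 was the lowest of its group for 6, mouse 2 for 1 and mouse 3 for 2 (Acaca and Mlxipl). Of the 10 genes, 7 had raw counts below 10 in p62S351E/+ mouse 1, against 4 in mouse 2 and 3 in mouse 3. The ratio of raw counts of one gene to another in the same library does not depend on scaling. The ratio of Thrsp to Mlxipl was 0.143, 0.13 and 0.137 in the p62+/+ mice and 0.0247, 0.0472 and 0.0606 in the p62S351E/+ mice, groups that did not overlap (exact two-sided permutation p = 0.1, the smallest possible, or 0.3 adjusted over the 6 ratios). That of Acaca to Mlxipl was 0.366, 0.296 and 0.333 against 0.259, 0.245 and 0.212, which did not overlap either (exact permutation p = 0.1, adjusted 0.3). The ratios of Scd1, Fasn, Srebf1 and Acly to Mlxipl overlapped between the genotypes (exact permutation p between 0.2 and 0.8). The 6 ratios were compared after the values had been seen. Per kilobase of exon, with exons of all GENCODE M21 transcripts merged, the level in the p62+/+ mice was highest for Mlxipl (33.0 ± 1.47 normalized counts per kb, SD, n = 3) and next for Scd1 (20.4 ± 6.82). Thrsp (11.4 ± 0.344) and Fasn (11.3 ± 4.37) followed and did not differ beyond their spread. Acly (8.82 ± 0.403) and Srebf1 (8.41 ± 1.73) were likewise within their spread, and Acaca had 3.54 ± 0.281, Elovl6 1.5 ± 0.53, Acacb 1.07 ± 0.454 and Pnpla3 0.334 ± 0.579. In p62S351E/+ mice Mlxipl remained the highest, at 23.5 ± 4.73. Scd1 (6.8 ± 4.0), Fasn (5.04 ± 1.96), Acly (4.63 ± 2.73) and Srebf1 (4.5 ± 1.6) followed, within their spread. Thrsp had 2.48 ± 0.644, within the spread of Acly.

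The libraries that stand apart were also treated in separate fits. Without p62S351E/+ mouse 3, 4 of the 10 genes were called lower: Thrsp (log2 fold change -2.23), Scd1 (-1.80, adjusted p = 0.0214), Acly (-1.53, adjusted p = 0.00181) and Fasn (-1.30, adjusted p = 0.0319, all edgeR). In that fit 15.3% of all tested genes were called lower, and the brain markers were at or near 0 in both p62S351E/+ mice that remained. With p62S351E/+ mouse 3 alone against the 3 p62+/+ mice, a comparison within libraries of like brain-marker counts in which the lone mouse is assumed to vary like the p62+/+ mice, 2 of the 10 genes were called lower, against 0.303% of the tested genes. These were Thrsp (log2 fold change -1.98, adjusted p = 0.0131, edgeR) and Acaca (-1.46, adjusted p = 0.00615, edgeR). Here Scd1 had -1.11 (adjusted p = 0.13), Fasn -0.90 (adjusted p = 0.532), and Acly -0.17 (adjusted p = 0.914, edgeR). With the brain markers as a covariate, 0 of the 10 were called: Thrsp had a log2 fold change of -1.98 (adjusted p = 0.144, edgeR), and Acly one of -0.16. The markers were low only in p62S351E/+ mice 1 and 2, so the genotype term of this fit rests largely on mouse 3. It is therefore not separate evidence from the fit with mouse 3 alone. Between the fits without mouse 3 and with mouse 3 alone, the log2 fold change of Thrsp went from -2.23 to -1.98 and that of Acly from -1.53 to -0.17, and these shifts were not tested. Mouse 3 differed from mice 1 and 2 in both brain transcripts and Xist, which cannot be told apart here. With Xist as a covariate Thrsp had an adjusted p of 0.0859 (edgeR). Adipocytes, which also make fatty acids, were not detected by their defining markers: Adipoq, Plin1, Lep and Retn had 0 counts in all 6 libraries, and the 9 adipocyte markers together had between 1 and 11 raw counts.

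The rest of the pathway was read from lists that were written with earlier results of these data known. By edgeR 0 genes of the 4 lists were called in either direction, 4 being lower and 11 higher at an unadjusted p under 0.05, among 67 tested. Of all tested genes 5.55% were lower and 9.02% higher at that p, so that higher values outnumbered lower ones there too. DESeq2 also called 0, and limma-voom called 1, Prkaa2. Genes that feed carbon and NADPH into the pathway had a median log2 fold change of 0.13, with 6 of the 16 tested genes below 0. Of all tested genes 51.96% were below 0, the share to set beside each list. Pyruvate kinase (Pklr), a ChREBP target named here after its values were seen, had 34.0 ± 6.93 and 18.5 ± 6.07 normalized counts (mean ± SD over 3 mice each) and a log2 fold change of -0.87 (adjusted p = 0.267, edgeR). In the other direction, the glucose transporter gene Slc2a2 was above all p62+/+ mice in each p62S351E/+ mouse (log2 fold change 0.86, adjusted p = 0.224, edgeR). Gpd1, which makes glycerol 3-phosphate, and Idh1, an NADPH source, had log2 fold changes of 0.47 and 0.21 and overlapping groups.

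Other desaturases, elongases and acyl-CoA synthetases had a median log2 fold change of -0.13, with 7 of 11 below 0. Elovl2, which elongates polyunsaturated fatty acids, had 64.8 ± 13.9 normalized counts in the p62+/+ mice and 122 ± 21.1 in the p62S351E/+ mice (SD, n = 3 each), with groups that did not overlap (log2 fold change 0.91, adjusted p = 0.154, edgeR). Fads1 and Elovl5, of the same polyunsaturated branch, had -0.31 and -0.13, and Acsl1, which activates fatty acids, -0.39 (adjusted p = 0.435, edgeR). Genes of triglyceride assembly and storage had a median of 0.46, with 1 of 13 below 0. That one was Lpin1 (log2 fold change -0.62, adjusted p = 0.587, edgeR), a phosphatidate phosphatase, which stood at 22.7%, 116% and 54.6% of the p62+/+ mean in p62S351E/+ mice 1, 2 and 3, and the others of high expression were Lpin2 (0.35), Dgat2 (0.25), Mttp (0.65) and Agpat3 (0.46), none past the test. Upstream regulators had a median of 0.21, with 8 of 27 below 0. Among the most abundant ones, Insr had 0.59, Rxra 0.47, Ppara 0.33 and Irs2 0.25, with adjusted p values between 0.329 and 0.898 (edgeR). At an unadjusted p under 0.05, 2 regulators were lower and 4 higher (edgeR). The 2 lower ones, named after their values were seen, were Srebf2 and Thra. Srebf2 had a log2 fold change of -1.18 (adjusted p = 0.309, edgeR), and Thra -1.21 (adjusted p = 0.289, edgeR). Each had groups that did not overlap and only 2 raw counts in p62S351E/+ mouse 1. The regulator nearest to a call was Prkaa2, the gene of the AMPK catalytic subunit α2, a kinase that inhibits the carboxylases; it was singled out after its values were seen. Its normalized counts were 9.63, 15.5 and 14.7 in the p62+/+ mice and 43.8, 32.8 and 31.8 in the p62S351E/+ mice (log2 fold change 1.43, standard error 0.29, adjusted p = 0.0769, edgeR). Mid1ip1, a paralog of Thrsp also named after its values were seen, had 20.9, 13.2 and 19 normalized counts in the p62+/+ mice, while the first and second p62S351E/+ mouse had 1.90 and 1.26 and the third 20.9, where the brain markers were also high.

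**Figure D4:**
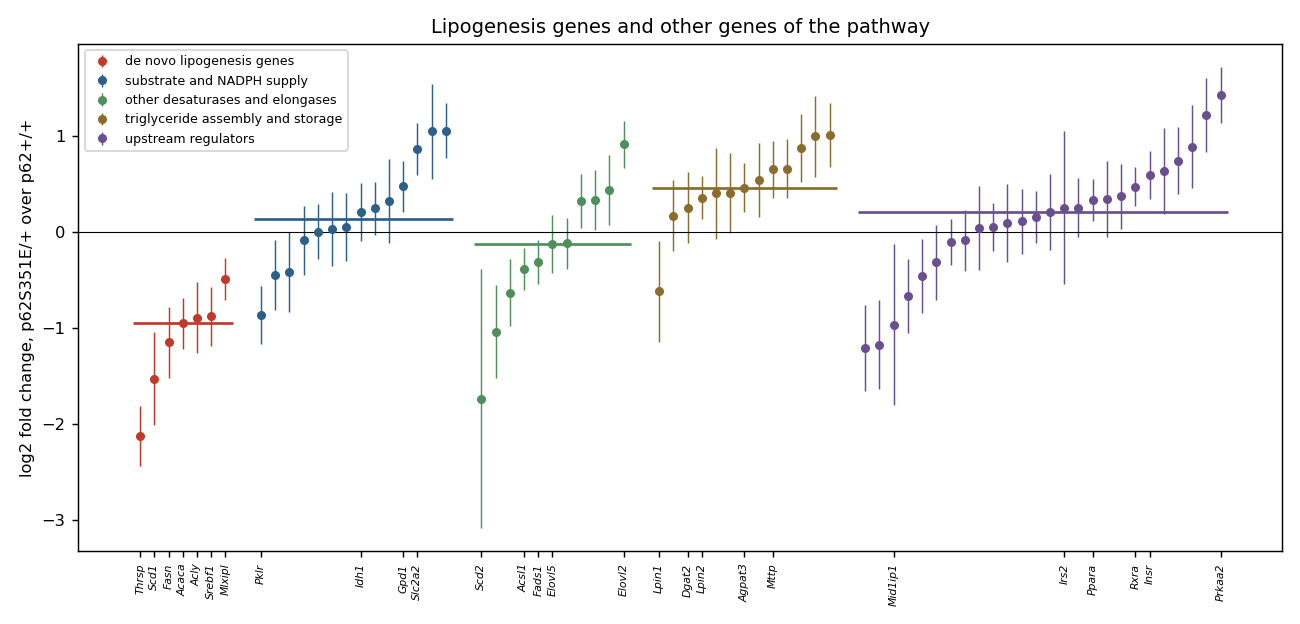
The log2 fold change (p62S351E/+ over p62+/+) of tested genes, with the standard error as a bar and the median over all tested genes of each list as a horizontal line, for the lipogenesis genes and 4 further lists, with labels for genes named in the text other than Srebf2 and Thra. The medians are -0.95 for the lipogenesis genes, 0.13 for substrate and NADPH supply, -0.13 for other desaturases and elongases, 0.46 for triglyceride assembly and 0.21 for upstream regulators.

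Among tested genes with a mean raw count of at least 20, Msl1, Cml1, Aak1 and Tbc1d9b were among the 5 whose profile over the 6 libraries was most like the mean profile of the 7 tested genes. The root mean square difference of their centred log2 values from that profile lay between 0.07 for Msl1 and 0.23 for Tbc1d9b. Msl1 had 28.1, 27.8 and 27.6 normalized counts in the p62+/+ mice and 9.52, 13.9 and 13.9 in the p62S351E/+ mice, a log2 fold change of -1.14 (adjusted p = 0.116, edgeR). Each of these 4 was below all p62+/+ mice in every p62S351E/+ mouse, which the choice by profile favours, and none was called.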

How the data were processed

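Per the labels and the methods, the authors depleted ribosomal RNA, sequenced 75-base single-end reads, trimmed them (Trim Galore), mapped them to mm10 with STAR and deposited expected counts per gene from RSEM, without normalization; their versions, the annotation and the use of strand are not given in the sources used here. RSEM divides reads that match several genes, so 6.45% of nonzero values were not whole. Total expected counts lay between 8696712 and 10341622 per library. From these, counts were rounded, filtered (filterByExpr, minimum count 10), scaled by TMM and tested by edgeR 4.0.16 (quasi-likelihood, robust, legacy set to FALSE; R 4.3.3) with genotype as the only term. DESeq2 (the authors' tool, here 1.42.0) and limma 3.58.1 were alternatives, with other filters, scalings, covariates and left-out mice. Standard errors were derived from the log2 fold change and the F statistic. Tests were checked on simulated counts. Those had the same dispersion for all genes and no split within a genotype, unlike these libraries. Positions and promoters are from RefSeq (GRCm38.p6), exon lengths from GENCODE M21, both of the build of mm10.

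The 10 genes and all lists, motifs and alternatives were chosen with earlier results of these data known. Genes named were the 10, those of each further list that were called or among its 5 most abundant tested members, and the 5 with the most similar profile, except that 4 of these are not reported here. The p-values measure the spread between mice. The fit with p62S351E/+ mouse 3 alone has no spread within that genotype and is given without p-values.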

Additional observations from a re-analysis of the deposited data

How the results depend on the processing

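The log2 fold changes of the 9 genes other than Pnpla3 stayed below 0 in every alternative that gave one. One gene was called lower in the fit reported. This count was 0 with DESeq2's default Wald test, where Thrsp had no adjusted p (unadjusted p = 0.000632), 0 with library size as the only scaling, 0 with the Xist covariate, 0 with the brain-marker covariate and 0 with the replicate number as a block, and it was 2 with at least 10 counts in every library (Acaca and Fasn, since Thrsp is then not tested). No count is given for the brain-bearing libraries only, an alternative chosen after seeing the data that leaves a single p62S351E/+ mouse. limma-voom also called 1, Acaca in place of Thrsp. With one mouse left out the number called lower ran from 0 to 4. The median log2 fold change of the tested genes, -0.95, was -1.71 with library size only, which moved that of all genes to -0.68, and ran from -1.30 to -0.70 with one mouse left out.

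Of all genes, 5 were called lower and 50 higher. The numbers lower and higher were 11 and 57 with DESeq2, 12 and 131 with limma-voom, 8 and 59 with the legacy method, 10 and 79 without a filter, 29 and 70 with at least 10 counts in every library, 2 and 12 with library size only, 2 and 27 with the Xist covariate, 2 and 29 with the brain-marker covariate, 1 and 18 with the replicate block, and 23 and 72 with the brain-bearing libraries only. With one mouse left out they ran from 1 to 976 and from 16 to 329, the high ends without p62S351E/+ mouse 3. The deviations of same-numbered mice correlated at 0.07, -0.09 and 0, and 2 of the 6 mice correlated best with their own number, so the numbers were not taken to pair them; with the block Thrsp had an adjusted p of 0.134 (edgeR). The causes of these differences between the fits were not tested. Depth limits Acacb, Elovl6, Pnpla3 and the p62S351E/+ values of Thrsp. It also limits the values of Acly, Srebf1 and Scd1 in p62S351E/+ mouse 1.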
